A study of Mus musculus with 18 samples.

Results

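A set of 10 genes that act at or just downstream of the receptor for tumor necrosis factor (TNF) was followed during differentiation. The cells were neurospheres (NSPs), floating clusters grown from neural stem cells, differentiating into astrocytes. The genes were chosen by name, as the TNF receptors, their adaptors and other proteins of the first signaling steps. They make up 10 of the 54838 genes counted. The receptors are *Tnfrsf1a* and *Tnfrsf1b*. The adaptors are *Tradd*, *Traf1* and *Traf2*, the kinases are *Ripk1* and *Map3k14*, the ubiquitin ligases are *Birc2* and *Birc3*, and the inhibitor of caspase activation is *Cflar*.

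TNF, a cytokine made mainly by activated microglia and macrophages, binds to TNFR1 (*Tnfrsf1a*), which most cell types carry, and to TNFR2 (*Tnfrsf1b*), which is best known from immune, endothelial and some glial cells. On TNFR1 the adaptor TRADD gathers RIPK1 and TRAF2, and TRAF2 brings the ubiquitin ligases cIAP1 (*Birc2*) and cIAP2 (*Birc3*). The ubiquitin chains that these ligases build recruit the kinases of the NF-κB and MAP kinase pathways. A later complex can activate caspases, which cFLIP (*Cflar*) holds back, while the TRAF and cIAP proteins keep the kinase NIK (*Map3k14*), the trigger of noncanonical NF-κB signaling, at a low level.

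Ribosome-depleted total RNA was sequenced from cultures of C57BL/6J wild-type neural stem cells, which had been isolated from the ventricular zone of single embryonic day 14 brains. The groups were NSPs growing with EGF at 20 ng/ml (NSPs), cells moved to medium with 10% serum for 24 h or 72 h without TNF (24 h, 72 h) or with TNF at 50 ng/ml for as long (24 h TNF, 72 h TNF), and cells kept in serum medium for 1 week without TNF (1 week). Each of the 6 groups had 3 replicates. The study describes its data in general as coming from independent biological experiments, while no label ties the replicates of this series to separate brains, so the p-values measure the spread between these cultures, part of which may be technical. All groups carried the same genotype, and every differentiated group, the 24 h and 72 h controls included, had been exposed to serum.

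Libraries held 12509693 to 22549627 counts, the median being 16794798. All 8 astrocyte markers on the list used were at or above 1 CPM (counts scaled to the library total) in every group, with a summed level of 2683 to 8145 CPM. Of 11 markers of microglia and macrophages, 2 or 3 reached 1 CPM in a group, *C1qa* had no count in any library, and *Itgam* and *Ptprc* had at most 3 counts in a library. Of 10 listed genes known to respond to TNF, 7 were tested, and 6 were called higher with TNF at 24 h and 5 at 72 h, where 2.18% and 4.35% of all tested genes were. *Sod2* was called at neither time (log2 fold changes of -0.30 and -0.32), and *Lcn2* was not called at 72 h (adjusted p = 0.240, edgeR). *Nfkbia*, the inhibitor of NF-κB, rose from 27.5 ± 3.15 to 149 ± 13.1 CPM at 24 h and from 22.0 ± 5.41 to 154 ± 6.29 CPM at 72 h (SD, n = 3 each).

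The levels of the 10 genes were first compared with each other as CPM per kb of exon, a scale that allows genes of different length to be set side by side. *Tnfrsf1a* had a mean of 10.8 CPM per kb in NSPs and 24.6 CPM per kb at 72 h TNF, the lowest and highest of its 6 group means. *Birc2* lay between 11.6 and 17.7 CPM per kb, and *Cflar* between 6.17 and 11.4 CPM per kb. *Traf2*, *Ripk1* and *Tradd* had group means of 3.86 to 10.5 CPM per kb, and *Map3k14* was lower at 1.68 to 3.29 CPM per kb. The remaining 3 genes were scarce on the same scale. The highest group mean was 0.0695 CPM per kb for *Traf1*, 0.0821 CPM per kb for *Birc3* and 0.0257 CPM per kb for *Tnfrsf1b*. In each pair of related proteins 1 partner made up nearly all of the RNA: the ratio of *Birc3* to *Birc2* per kb was at most 0.00484 in any library, and that of *Traf1* to *Traf2* was at most 0.0203.

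**Figure D1:**
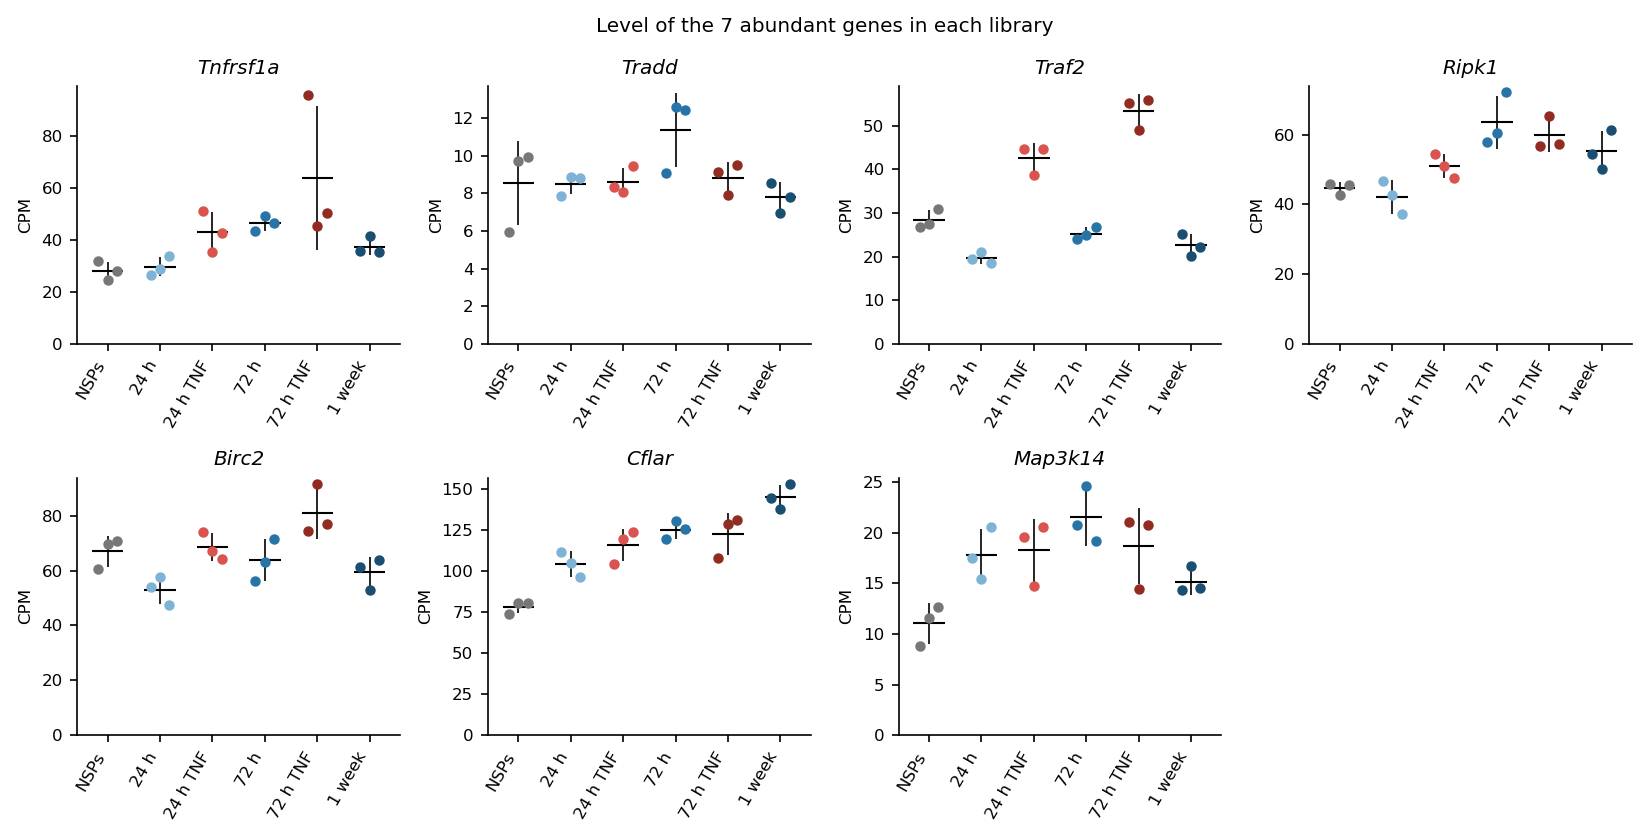
CPM (vertical axes, from 0) of the 7 abundant genes in each of the 18 libraries, by group along the horizontal axes. Points are libraries, horizontal bars are group means and vertical bars are ± 1 SD; *Traf2* lay at 38.6 CPM or above in the 6 TNF libraries and at 30.9 CPM or below in the other 12.

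Of the 10 genes, 8 passed the filter on low counts and were tested with 20067 genes in all, by the quasi-likelihood test of edgeR with Benjamini-Hochberg adjustment. *Tnfrsf1b* and *Birc3* did not pass it and are described by their counts. A gene was called at an adjusted p-value under 0.05. The first comparison asked how TNF changed the receptors and their partners during differentiation, at 24 h and at 72 h.

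Of the 8 tested genes 1 was called higher with TNF, the adaptor *Traf2*, and 0 were called lower. This held at 24 h, where 2.18% of all tested genes were called higher and 1.32% lower, and at 72 h, where 4.35% were higher and 5.21% lower. The median log2 fold change of the 8 genes was 0.24 at 24 h and -0.06 at 72 h, beside -0.01 over all tested genes at each time.

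*Traf2* encodes the adaptor that carries the cIAP proteins to the receptor. Its levels in the 3 replicates were 19.4, 21.1 and 18.6 CPM at 24 h and 44.6, 38.6 and 44.8 CPM at 24 h TNF. At 72 h they were 24.0, 24.97 and 26.8 CPM without TNF and 55.2, 49.0 and 56.0 CPM with it. All 3 treated libraries lay above all 3 controls at each time, and the groups were far apart relative to their spread. The log2 fold change was 1.11 ± 0.12 (SE) at 24 h, 2.17-fold, with an adjusted p-value of 2.16e-05 in edgeR. At 72 h it was 1.08 ± 0.12, 2.11-fold, with an adjusted p-value of 1.21e-05. Leaving out any 1 of the 6 libraries of a comparison left it called, with log2 fold changes of 1.06 to 1.17 at 24 h and of 1.04 to 1.14 at 72 h. The TNF effect at 72 h minus that at 24 h was -0.04 on the log2 scale, with a 95% interval of -0.39 to 0.32 and an adjusted p-value of 0.955. No difference between the times was detected within that interval. The sum of the 8 astrocyte markers also differed between the 72 h groups, at 5696 to 8145 CPM without TNF and 3485 to 4888 CPM with it, while at 24 h it was 5324 to 5789 CPM and 4875 to 6199 CPM. Most of the 72 h difference lay in *Gfap*, with means of 2432 ± 673 and 489 ± 461 CPM (SD, n = 3). *Aldoc* (581 and 195 CPM), *Gja1* (540 and 212 CPM), *S100b* (76.0 and 24.4 CPM) and *Aqp4* (871 and 645 CPM) were also lower with TNF. The markers did not all move as one: *Slc1a3* was at 2203 and 2081 CPM, *Slc1a2* at 334 and 413 CPM and *Aldh1l1* at 8.14 and 12.3 CPM. Other marker sums were apart too. At 72 h these were oligodendrocyte lineage (14.3 to 18.5 and 24.2 to 80.35 CPM) and endothelial (6.28 to 7.61 and 3.66 to 3.82 CPM). At 24 h they were microglia and macrophage (34.7 to 42.4 and 45.8 to 61.5 CPM), oligodendrocyte lineage (61.1 to 63.1 and 43.4 to 56.0 CPM), and fibroblast and mural (1.66 to 2.40 and 2.91 to 5.86 CPM). The part of these differences in the values of the genes described here was not tested. In bulk cultures fewer cells of a type and less RNA per cell cannot be told apart.

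**Figure D2:**
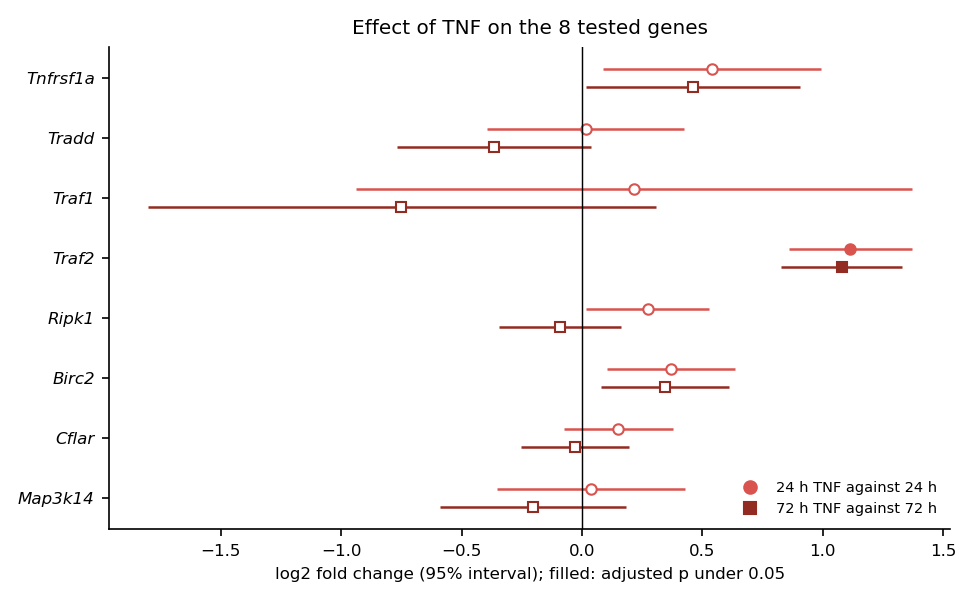
Log2 fold change (horizontal axis) of the 8 tested genes with TNF at 24 h (circles) and 72 h (squares); bars are 95% intervals, and filled symbols mark an adjusted p-value under 0.05. Only *Traf2* is filled, at 1.11 and 1.08, while the intervals of *Tnfrsf1a* and *Birc2*, and of *Ripk1* at 24 h, also lie above 0 before adjustment for the number of genes tested.

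*Tnfrsf1a* encodes TNFR1. It measured 26.5, 28.6 and 33.7 CPM at 24 h and 51.1, 35.4 and 42.5 CPM at 24 h TNF. At 72 h it measured 43.4, 49.3 and 46.5 CPM without TNF and 95.8, 45.4 and 50.4 CPM with TNF. The groups did not overlap at 24 h, and at 72 h they did, with 1 treated library far above the others. The log2 fold change was 0.54 ± 0.22 at 24 h (adjusted p = 0.235, edgeR) and 0.46 ± 0.21 at 72 h (adjusted p = 0.182, edgeR), so neither was called. With no filter on low counts the 24 h value was called (adjusted p = 0.0423, edgeR). Without the first 72 h TNF replicate, the one at 95.8 CPM, the 72 h value was 0.05. That library also had the lowest sum of the 6 neural stem cell markers of all 18, 516 CPM beside 1069 and 1008 CPM in its group mates, and a higher sum of the 5 oligodendrocyte lineage markers, 80.3 CPM beside 24.2 and 28.4 CPM. The first 24 h TNF replicate, with the highest level of *Tnfrsf1a* in its group, also stood apart, with a stem cell sum of 1134 CPM beside 2937 and 2645 CPM and an astrocyte sum of 6199 CPM beside 4875 and 4941 CPM. Without it the 24 h value of *Tnfrsf1a* was 0.38 (adjusted p = 0.590, edgeR). The part of these differences in the level of *Tnfrsf1a* was not tested.

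*Birc2*, which encodes cIAP1, was at 54.1, 57.5 and 47.3 CPM at 24 h and at 74.1, 67.3 and 64.2 CPM at 24 h TNF. At 72 h it was at 56.3, 63.3 and 71.7 CPM without TNF and at 74.5, 91.8 and 76.9 CPM with TNF. The treated libraries were above the controls at both times, by a small margin at 72 h. The log2 fold changes of 0.37 ± 0.13 and 0.35 ± 0.13 did not pass the threshold (adjusted p = 0.144 and 0.0951, edgeR). The 72 h value was called when only genes with at least 10 counts in every library were tested, at 0.39 with an adjusted p-value of 0.0422.

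*Ripk1*, the kinase that serves both survival and death signaling, was at 46.7, 42.8 and 37.1 CPM at 24 h and 54.5, 50.9 and 47.7 CPM at 24 h TNF. The groups were apart, and the log2 fold change of 0.27 ± 0.12 was not called (adjusted p = 0.319, edgeR). At 72 h the ranges overlapped, with 58.0 to 72.3 CPM in controls and 56.9 to 65.3 CPM with TNF, and the log2 fold change was -0.09 ± 0.12. The difference between its effects at 72 h and 24 h was -0.36 on the log2 scale (95% interval -0.72 to -0.003), with an unadjusted p-value of 0.0486 and an adjusted p-value of 0.492. Of the exonic sequence of *Ripk1*, 7.27% of 75-base words also occur in transcripts of the pseudogene *Gm17084*, which had no counts, or of *Serpinb6a* on the opposite strand.

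The other 4 tested genes had no called change with TNF. *Tradd*, the first adaptor on TNFR1, had log2 fold changes of 0.01 ± 0.20 at 24 h and -0.37 ± 0.19 at 72 h. *Cflar* had 0.15 ± 0.11 and -0.03 ± 0.11, and *Map3k14* had 0.04 ± 0.19 and -0.20 ± 0.19. The 95% intervals of *Cflar*, -0.08 to 0.38 and -0.26 to 0.20, were the narrowest of the 8. *Traf1* had 0.22 ± 0.55 and -0.75 ± 0.50, on counts of 3 to 11 per library, with 95% intervals of -0.94 to 1.37 and -1.80 to 0.31 that were the widest of the 8. None of the 8 genes was called for a difference between the TNF effects at 72 h and at 24 h in edgeR, where 0.135% of all tested genes were called higher and 0.324% lower. Of the 8 genes 1, *Ripk1*, had an unadjusted p-value under 0.05, a threshold for which the share of all tested genes is not given here. DESeq2 called 0.

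The scarce genes were read from whole counts. *Birc3*, which encodes cIAP2, had counts of 0, 0 and 1 at 24 h and of 4, 2 and 5 at 24 h TNF. At 72 h it had counts of 0, 2 and 0 without TNF and of 7, 8 and 6 with TNF. Every treated library was above every control at the same time, at levels below 0.5 CPM. The summed counts were 11 against 1 at 24 h, a ratio of 10.3 after scaling to library size (95% counting interval 1.5 to 444), and 21 against 2 at 72 h, a ratio of 9.83 (2.40 to 86.4). These intervals cover counting error only. *Birc3* was not tested under the main filter. With no filter its log2 fold change had an adjusted p-value of 0.215 at 24 h and of 0.0230 at 72 h in edgeR, and with a minimum of 5 counts over all libraries of 0.268 and 0.0472. DESeq2 gave it no adjusted p-value. Of its 75-base words, 3.88% also occur in other genes' transcripts, among them *Birc2*.

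*Tnfrsf1b*, the gene of TNFR2, had no count in any of the 15 libraries of the other groups and 1, 2 and 2 counts at 1 week. A count of 0 over the 3 libraries of a group has a 95% upper counting limit of 0.0716 to 0.0850 CPM in these 5 groups. A TNF effect on it was not detectable at this depth.

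**Figure D3:**
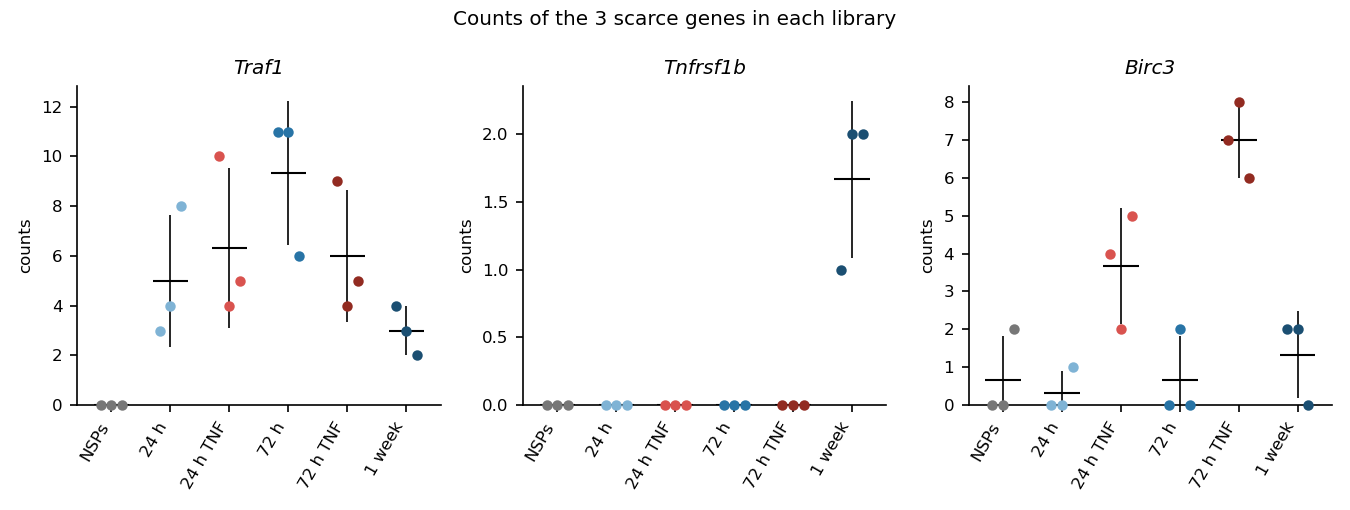
Whole counts (vertical axes) of *Traf1*, *Tnfrsf1b* and *Birc3* in each of the 18 libraries by group; points are libraries and bars are means ± 1 SD. *Birc3* had 2 to 8 counts in the 6 TNF libraries and 0 to 2 in the other 12, and *Tnfrsf1b* had counts at 1 week only.

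The second set of comparisons followed the same genes through differentiation without TNF. From NSPs to 24 h, 5 of the 8 tested genes were called, 3 higher and 2 lower, where 27.2% of all tested genes were called higher and 25.5% lower. *Cflar* rose from 73.8, 80.5 and 80.3 CPM to 112, 105 and 96.3 CPM, a log2 fold change of 0.42 ± 0.11 (adjusted p = 0.00372, edgeR). *Map3k14* rose from 8.82, 11.6 and 12.7 CPM to 17.5, 15.4 and 20.5 CPM, a log2 fold change of 0.69 ± 0.19 (adjusted p = 0.00531, edgeR). In both genes the groups were apart. The sum of the 6 neural stem cell markers was 4417 to 6563 CPM in NSPs and 1836 to 2252 CPM at 24 h. NSPs replicate 1 stood apart at 6563 CPM beside 4417 and 4571 CPM in its group mates. The part of these differences in the values of the genes described here was not tested.

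*Traf1*, which encodes a partner of TRAF2 that is itself a known NF-κB target, had no count in the 3 NSP libraries and 3, 4 and 8 counts at 24 h. With NSPs set at a floor of 3 counts over the group it was 5.94-fold higher at 24 h, a ratio without counting error. The 95% counting interval was 0.1935 to 0.570 CPM at 24 h and reached 0.0716 CPM in NSPs. *Traf1* was called with an adjusted p-value of 0.000712 (edgeR). It passed the filter through the groups in which it was higher, and it was not tested when only these 2 groups entered the fit, so it adds no support to the count of 5; of the other 7 tested genes 4 were called. *Traf2* moved the other way, from 26.9, 27.5 and 30.9 CPM in NSPs to 19.4, 21.1 and 18.6 CPM, and fell by 0.53 on the log2 scale (SE 0.12, adjusted p = 0.00145, edgeR). *Birc2* fell by 0.34 (SE 0.13, adjusted p = 0.0317, edgeR), from 60.6, 69.7 and 70.9 CPM to 54.1, 57.5 and 47.3 CPM. The call of *Birc2* was lost in 4 of the 6 fits that left out 1 library (adjusted p up to 0.119), those without 24 h replicate 1 or 3 or without NSPs replicate 2 or 3, and that of *Traf2* in none. Without a filter on low counts *Cflar* was at an adjusted p-value of 0.0540.

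Across all 6 conditions the 2 TNF groups had the highest levels of *Traf2*, apart from each other in range, with means of 53.4 ± 3.8 and 42.7 ± 3.49 CPM (SD, n = 3). NSPs followed at 28.4 ± 2.18 CPM and then 72 h at 25.2 ± 1.43 CPM, which did not overlap although the nearest libraries differed by less than 0.1 CPM. The ranges of 72 h and 1 week (22.5 ± 2.54 CPM) overlapped, as did those of 1 week and 24 h (19.7 ± 1.31 CPM). The difference between 72 h TNF and 24 h TNF was 0.32 ± 0.12 on the log2 scale and was not called (adjusted p = 0.0809, edgeR).

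From 24 h to 72 h without TNF, 3 of the 8 genes were called higher and 0 lower, beside 12.2% of all tested genes higher and 12.6% lower. *Ripk1* rose from 46.7, 42.8 and 37.1 CPM to 58.0, 60.7 and 72.3 CPM, a log2 fold change of 0.59 ± 0.12 (adjusted p = 0.00141, edgeR). *Tnfrsf1a* rose by 0.65 ± 0.22 (adjusted p = 0.0340, edgeR), from at most 33.7 CPM in the 24 h libraries to at least 43.4 CPM in those of 72 h. *Traf2* rose by 0.36 ± 0.12 (adjusted p = 0.0379, edgeR), from at most 21.1 to at least 24.0 CPM.

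The last 2 calls were not firm. Each was lost in 4 of the 6 fits that left out a library, with adjusted p-values of up to 0.123 for *Tnfrsf1a* and 0.131 for *Traf2*. Those were the fits without 24 h replicate 1 or 72 h replicate 2 or 3 for both genes, and without 24 h replicate 2 for *Tnfrsf1a* or 24 h replicate 3 for *Traf2*. The call of *Ripk1* was kept in every fit run.

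Between 72 h and 1 week none of the 8 genes was called in edgeR, beside 2.68% of all tested genes higher and 3.96% lower, and DESeq2 also called 0. An unadjusted p-value under 0.05 was found in 3, all lower at 1 week. The shares of all tested genes under that looser threshold, or with groups apart, are not given here. *Traf1* had 11, 11 and 6 counts at 72 h and 4, 3 and 2 at 1 week, *Tradd* went from 9.08, 12.6 and 12.4 CPM to 8.57, 6.96 and 7.82 CPM, and *Map3k14* from 20.7, 24.7 and 19.2 CPM to 14.3, 16.7 and 14.5 CPM. In all 3 the groups were apart, with adjusted p-values of 0.0639, 0.103 and 0.121. *Map3k14* was called when only these groups entered the fit (adjusted p = 0.0472, edgeR), *Tradd* without 72 h replicate 1 (0.0485) and *Traf1* without 72 h replicate 3 (0.0475). The sum of the 8 astrocyte markers was 5696 to 8145 CPM at 72 h and 2683 to 3247 CPM at 1 week. The part of that difference in these values was not tested.

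Cells at 1 week were then set against the NSP group. Here 5 of the 8 genes were called, 4 higher and 1 lower, where 29.6% of all tested genes were higher and 29.1% lower. *Cflar* had the firmest call, at 144, 138 and 153 CPM against 73.8, 80.5 and 80.3 CPM, a log2 fold change of 0.89 ± 0.11 (adjusted p = 1.28e-06, edgeR), and its 1 week libraries were above those of all other groups. Of its 75-base words, 5.36% also occur in transcripts of other genes, and the counting of such reads is not stated. *Traf1* had 4, 3 and 2 counts against 0 in each NSP library. The ratio to a floor of 3 counts over the NSP group was 2.81, without counting error. The 95% counting interval was 0.0747 to 0.310 CPM at 1 week and reached 0.0716 CPM in NSPs. *Traf1* was called (adjusted p = 0.00621, edgeR). It was tested only through the counts of other groups, and without it 4 of 7 genes were called. The log2 fold changes of *Map3k14* (0.46 ± 0.19, adjusted p = 0.0441), *Ripk1* (0.31 ± 0.12, adjusted p = 0.0378) and *Traf2* (-0.33 ± 0.12, adjusted p = 0.0242) passed the threshold by little. Leaving out a library took these calls to adjusted p-values of up to 0.172, 0.169 and 0.121, in 5, 4 and 3 of the 6 fits. These were all but NSPs replicate 3 for *Map3k14*, 1 week replicates 1 and 3 and NSPs replicates 2 and 3 for *Ripk1*, and 1 week replicates 2 and 3 and NSPs replicate 3 for *Traf2*. In DESeq2 the calls of *Map3k14* (adjusted p = 0.0668) and *Ripk1* (adjusted p = 0.0819) were lost, and with the replicate number as a block that of *Ripk1* (adjusted p = 0.0522). Of the 8 alternative settings, *Traf2* and *Map3k14* were each called in 4 and *Ripk1* in 3. *Tnfrsf1a* was not called at 0.42 ± 0.21 (adjusted p = 0.104), with its groups apart, and was called without a filter on low counts (adjusted p = 0.0409), with at least 10 counts in every library (0.0479) and with only these groups in the fit (0.0209). The sum of the neural stem cell markers went from 4417 to 6563 CPM in NSPs to 993 to 1432 CPM at 1 week.

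Cultures kept with TNF for 72 h were also compared with those at 24 h TNF. None of the 8 genes was called in edgeR, beside 5.38% of all tested genes higher and 7.93% lower, and DESeq2 called 0. *Tnfrsf1a* (0.57 ± 0.21) and *Traf2* had an unadjusted p-value under 0.05, a threshold for which the share of all tested genes is not given here. *Tnfrsf1a* was called without 24 h TNF replicate 1 (adjusted p = 0.0313) or 72 h TNF replicate 2 (adjusted p = 0.0302), while its log2 fold change was 0.18 without the 72 h TNF library at 95.8 CPM. *Traf2* was called without 24 h TNF replicate 1 (adjusted p = 0.0450).

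The genes whose log2 CPM ran closest to *Tnfrsf1a* and *Traf2* over the 18 libraries were listed next, from 16445 genes with a mean of at least 1 CPM. The libraries differ in time and treatment, so the correlations describe shared differences between groups as well as within them. *Tnfrsf1a* was closest to *Clip4* (Pearson r = 0.92), *Gadd45a* (0.91), a stress-induced gene of growth arrest and DNA damage, and *Cnbd2* (0.90). All 4 genes peaked in the first 72 h TNF library, where *Clip4* was at 255 CPM and at 91.1 and 84.4 CPM in the other replicates. By ranks the 3 closest genes were *Lbp*, *Togaram2* and *C3*, and no gene was on both lists.

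*Traf2* was closest to *Relb* (r = 0.96), a subunit of NF-κB, *Ifngr2* (0.95), a chain of the interferon gamma receptor, and *Nfkbie* (0.94), an inhibitor of NF-κB. *Relb* was at 4.31 to 8.71 CPM in the 12 libraries without TNF and at 18.4 to 40.4 CPM in the 6 with it. *Ifngr2* was at 16.3 to 29.9 CPM without TNF and at 45.6 to 61.6 CPM with it. In each of these genes the TNF libraries stood apart from the rest. By ranks *Rsl1*, *B2m* and *Jmjd4* were closest, again with no gene on both lists. *Traf2* was added to this list after its values were seen.

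**Figure D4:**
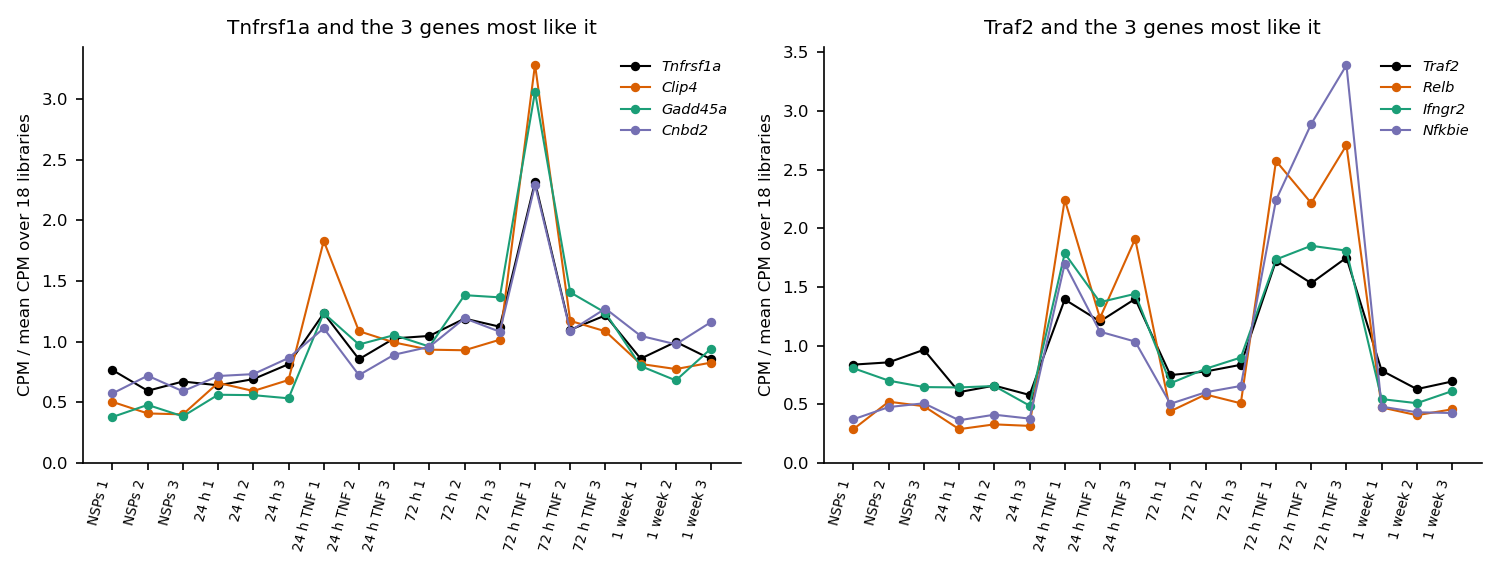
CPM divided by the gene's mean over the 18 libraries (vertical axes), for *Tnfrsf1a* (left) and *Traf2* (right) in black and the 3 genes with the highest Pearson correlation to each in color, by library (horizontal axes: group and replicate). The left panel is led by the first 72 h TNF library, and in the right panel the 6 TNF libraries stand above the other 12.

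On GRCm38 with GENCODE M21 the genes lie at chr6:125349362-125362484 on the plus strand for *Tnfrsf1a* (ENSMUSG00000030341), chr2:25517982-25546940 on the minus strand for *Traf2* (ENSMUSG00000026942), and chr13:34002363-34037147 on the plus strand for *Ripk1* (ENSMUSG00000021408). *Birc2* (ENSMUSG00000057367, chr9:7818227-7837064) and *Birc3* (ENSMUSG00000032000, chr9:7848699-7873186) are neighbors on the minus strand. All 10 genes are annotated as protein coding.

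The wider pathway was then counted by role, over 84 listed genes of which 59 were tested. With TNF 8 were higher and 1 lower at 24 h, and 8 were higher and 2 lower at 72 h, beside the background shares given above for each comparison. The 9 called at 24 h became 5 without the first 24 h TNF replicate, the library that stood apart in its markers. The 10 called at 72 h became 6 without 72 h TNF replicate 3 or 72 h replicate 2. For none of the 59 was the effect at 72 h called different from that at 24 h, and the list holds genes already known to respond to TNF.

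Of the 59 genes *Tnfaip3* had the largest change at both times, while the median over the 10 tested brakes was 0.23 at 24 h and 0.00 at 72 h. *Tnfaip3*, which encodes the ubiquitin-editing enzyme A20, went from 3.51 ± 0.29 to 38.3 ± 0.88 CPM at 24 h and from 5.36 ± 0.13 to 45.8 ± 15.98 CPM at 72 h (SD, n = 3), log2 fold changes of 3.44 ± 0.23 and 3.09 ± 0.22 (adjusted p = 3.50e-08 and 7.82e-08, edgeR). *Tnip1*, a partner of A20, rose by 0.65 ± 0.17 at 24 h and by 1.18 ± 0.17 at 72 h (adjusted p = 0.0416 and 0.000165, edgeR). Its 24 h call was kept only in the fit without 24 h TNF replicate 2 among the 6 that left out a library (adjusted p up to 0.228). The other 8 of the 10 tested brakes were not called.

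Among the other TRAF and IAP genes, 0 of 7 were called at 24 h. *Traf3*, which works with TRAF2 on NIK, rose by 0.69 ± 0.18 at 72 h and *Traf4* by 0.47 ± 0.14 (adjusted p = 0.0167 and 0.0392, edgeR). The call of *Traf3* was lost without 72 h TNF replicate 3 or 72 h replicate 2 (adjusted p up to 0.0786). Among the 6 fits that left out a library, that of *Traf4* was kept only without 72 h TNF replicate 2. Of the 14 kinases and ubiquitin ligases of the receptor complex, all of which were tested, *Map3k8* was called at 24 h, with a rise of 1.09 ± 0.16 (adjusted p = 0.000408, edgeR), and none at 72 h.

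Of 25 other receptors of the TNF family, 17 were tested. *Eda2r*, a receptor for an ectodysplasin isoform, rose at both times, by 1.5 ± 0.16 and 1.11 ± 0.16 (adjusted p = 1.52e-05 and 0.000125, edgeR). *Fas*, the death receptor, rose by 0.91 ± 0.16 at 24 h, from 98.0 ± 8.56 to 185 ± 55.2 CPM. At 72 h *Fas* was at 221 ± 19.5 CPM without TNF and 264 ± 39.2 CPM with it, a log2 difference of 0.26 ± 0.16 that was not called. *Edar* rose by 2.48 ± 0.51 at 24 h on means of 0.359 and 2.15 CPM, a call that was lost without 24 h TNF replicate 1 (adjusted p = 0.0577). *Tnfrsf21*, named here after its values were seen as the receptor that fell, decreased by 0.67 at 24 h and by 0.65 at 72 h, and each call was kept in 2 of the 6 fits that left out a library, without 24 h TNF replicate 2 or 3 and without 72 h TNF or 72 h replicate 1. Of 18 other ligands 6 were tested, and *Tnfsf18*, the ligand of GITR, rose by 1.43 ± 0.36 and 2.26 ± 0.32 (adjusted p = 0.0307 and 0.000143, edgeR). Among the 6 fits that left out a library, its 24 h call was kept only without 24 h TNF replicate 2 or 3. Without 24 h TNF replicate 1 the value was 0.90 with an adjusted p-value of 0.249. *Tnf* itself had 4 counts in all at 24 h TNF and 0 in the other groups.

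Of the 5 listed genes of the death-inducing complex, 2 were tested. *Ripk3* had no count in any library, and *Casp8* had none in 4 of the 6 groups and a mean of 0.0209 CPM at most in the other 2. *Mlkl* had 22 counts in all in NSPs and 1 to 15 in each other group. Counts at or near 0 do not show that an RNA was absent. *Fadd* was not called. *Bid*, a caspase substrate that carries the death signal to mitochondria, rose from 3.82 ± 0.43 to 9.27 ± 3.17 CPM at 24 h and from 3.67 ± 0.46 to 8.91 ± 1.16 CPM at 72 h, by 1.28 on the log2 scale at both times (adjusted p = 0.00259 and 0.000996, edgeR). Of the 3 tested genes of receptor shedding, none was called at 24 h. At 72 h *Timp3*, the inhibitor of the shedding protease, decreased by 0.82 (SE 0.13, adjusted p = 0.000283, edgeR), from 166 ± 12.3 to 94.3 ± 4.91 CPM, and *Rhbdf1*, which guides the protease to the surface, rose by 0.73 ± 0.21 (adjusted p = 0.0340, edgeR), a call kept only without 72 h TNF replicate 1 among the 6 fits that left out a library. The protease gene *Adam17* stayed between 109 and 113 CPM in means at 72 h.

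**Figure D5:**
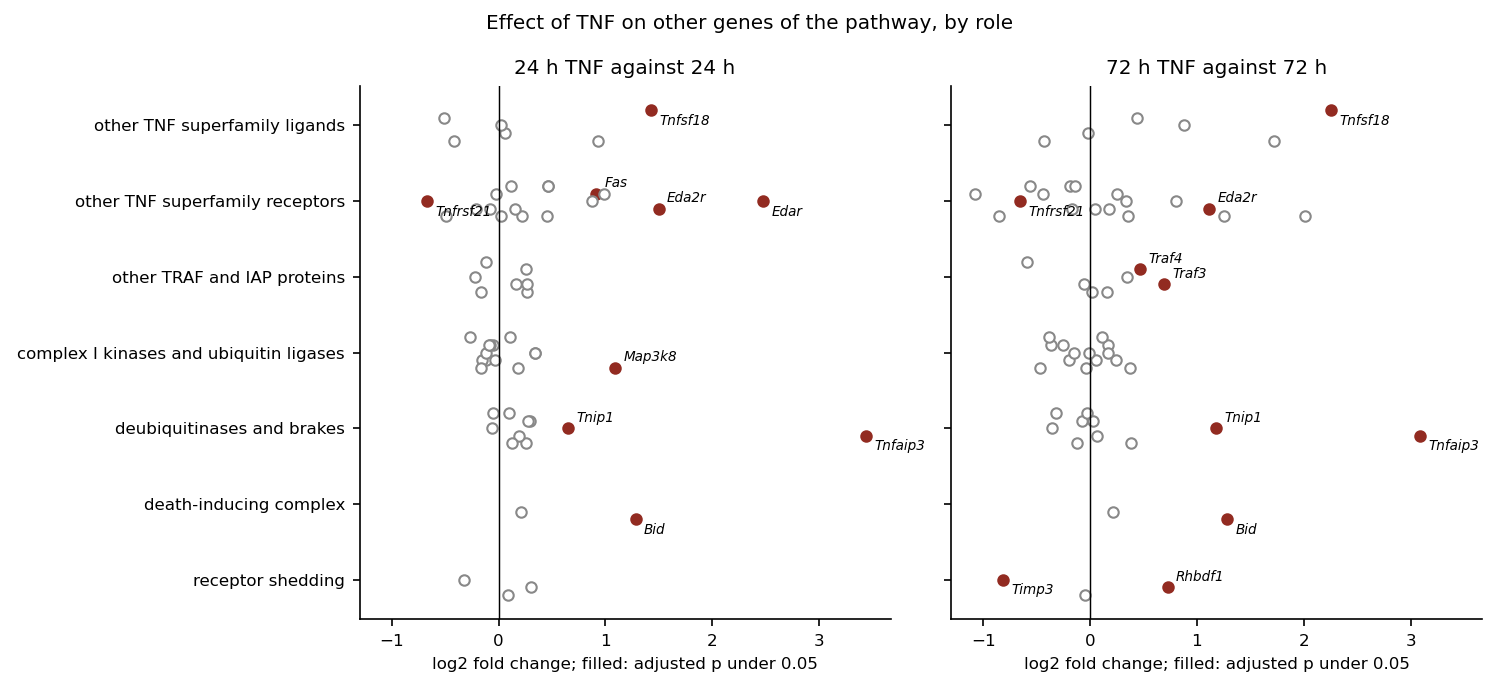
Log2 fold change with TNF (horizontal axes) of the 59 tested genes of the wider pathway by role (rows), at 24 h (left) and 72 h (right); each point is a gene, and filled named points have an adjusted p-value under 0.05. *Tnfaip3* lies farthest right in both panels, at 3.44 and 3.09, and 1 and 2 filled points lie left of 0.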

How the data were processed

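Raw gene counts of 18 libraries were used as the authors deposited them, without normalization. Per the labels and the study's methods, stranded ribosome-depleted libraries were sequenced, and reads were checked with FastQC, trimmed with Trim Galore, aligned with STAR, sorted with SAMtools and counted with featureCounts on mm10. Versions, the strand setting and the treatment of reads fitting several genes are not given in the sources used here. Groups came from the labels. One 72 h column carries the number 4 and was taken as the third 72 h sample, the only one left for that group.

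From these counts edgeR 4.0.16 (R 4.3.3) computed TMM factors, CPM and a quasi-likelihood fit over all 18 libraries with a mean per group, after its filter by group. The biological coefficient of variation was 0.18. Adjustment was over 20067 genes, log2 CPM used a prior count of 2, and exon lengths came from GENCODE M21. No 2 replicates were alike enough to be 1 library (chi-square divided by its degrees of freedom, 3.71 to 55.4). DESeq2 1.42.0, RLE factors, other filters, a fit of only the compared groups, a replicate block and leaving out each library were alternatives. Same-numbered replicates were correlated in their deviations from the group mean in all 3 pairs in 72 h TNF against 24 h TNF (0.26 to 0.29). In the other comparisons the values ran from -0.42 to 0.30. The script was tested on simulated data. Tables and figures used Python 3.11.15.

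The genes and lists were chosen with earlier results of these data known. All 10 genes were described. Other pathway genes were named as the largest called changes, at most 3 per role, with a mean of at least 1 CPM. *Tnfrsf21*, *Tnf*, *Ripk3*, *Casp8*, *Mlkl*, *Fadd* and *Adam17* were named beside that rule, after their values were seen. Closest genes were set to be listed for *Tnfrsf1a*, *Tnfrsf1b* and *Birc3*, and the last 2 did not pass the filter. The level of 1 marker gene is not reported here.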

Additional observations from a re-analysis of the deposited data

How the results depend on the processing

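No log2 fold change of the 8 tested genes turned to a called value of the opposite sign. The call of *Traf2* with TNF was kept at 24 h and at 72 h in all 8 alternative settings and all 6 fits without a library. Fits without a low-count filter called 2 genes with TNF at 24 h and 2 at 72 h, and 2 were called at 72 h with at least 10 counts in every library and with at least 5 counts in total, a filter chosen after seeing the data. From NSPs to 24 h, 3 genes in place of 5 were called without a filter, with at least 10 counts, and with only the compared groups. *Traf1*, 1 of the 5, was not tested in the last 2 of these settings and was called in the 6 that tested it. From NSPs to 1 week the count of 5 became 3 with RLE factors, without a filter and in DESeq2, and 2 with at least 5 counts. Between 72 h and 1 week 1 gene was called with only those groups, and between 24 h TNF and 72 h TNF 1 without a filter and 1 with at least 10 counts. Of the wider pathway at 24 h, 5 genes in place of 9 were called with only the compared groups.

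With 1 library left out, the number of genes called ran from 1 to 3 from 24 h to 72 h, from 0 to 1 from 72 h to 1 week, from 2 to 4 from NSPs to 1 week, and from 0 to 2 from 24 h TNF to 72 h TNF. For the wider pathway it ran from 5 to 9 at 24 h and from 6 to 12 at 72 h. With the replicate number as a block 1 gene was called with TNF at each time, 5 from NSPs to 24 h, 3 from 24 h to 72 h and 4 from NSPs to 1 week. With the third 72 h library unpaired in that block, chosen after seeing the data, 1 gene was called from 24 h to 72 h. Only the pairs of 72 h TNF and 24 h TNF qualified as pairs, and there the block changed no call. The causes of these shifts were not tested.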
